A study of Oryza sativa Indica Group and Oryza sativa Japonica Group with 12 samples.

Results

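The regions described here carried H3K27me3-associated chromatin loops in seedlings of 2 indica rice varieties and had no listed loop in the roots of either. Anchors of the 4 loop lists of Minghui 63 (MH63) and Zhenshan 97 (ZS97), in seedling and root, were merged where they overlapped, which gave 14152 regions. The signal of a region in a list was the sum of the paired-end tags (PETs) of all loops with an anchor midpoint in it. A region was taken when it had 5 or more PETs in both seedling lists and no loop in either root list. This held for 378 regions of the 14152, or 5.54% of the 6825 regions with 5 or more PETs in both seedling lists (95% interval 5.01 to 6.11). The regions were thus selected on measured values, the seedling PETs and the absence from the root lists, and these are given as a description.

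Polycomb repressive complex 2 sets H3K27me3, a mark of repressed chromatin. In plants it lies mainly over genes that are silent in the tissue at hand, among them developmental regulators, and its distribution differs between organs. Regions that carry the mark can gather in the nucleus. ChIA-PET captures such contacts by enriching chromatin with an antibody, ligating DNA ends that are held close together and sequencing each ligated fragment from both sides as a PET. A pair of anchors joined by more PETs than their tags would give by chance are listed as a loop.

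The study used 8 samples of these varieties in 4 groups, each with 2 labelled replicates, of unmodified MH63 seedlings, MH63 roots, ZS97 seedlings and ZS97 roots; no treatment is labelled, and the sources used here do not give the age of the plants. The authors deposited 1 list per group that pools both replicates, so the spread between replicates could not be measured and the comparisons below carry no test and no p-value. The lists held 484060 to 695423 PETs. Total tags, solved from the deposited p-values, were 22.1 M in MH63 seedling, 51.2 M in ZS97 seedling, 41.3 M in MH63 root and 13.4 M in ZS97 root. ZS97 root thus had the fewest total tags, yet it had the most loops, 110885, and its 535937 PETs were more than those of either seedling list. A contact too weak for the authors' thresholds is missing from a list, so absence from a root list does not show that there was no contact. All intervals are 95% intervals of counting error only. They leave out the spread between replicates, so the true errors are wider. Seedlings and roots are mixtures of cell types, so contacts in fewer cells and weaker contacts in all cells cannot be told apart. The files hold no expression values against which the tissues could be checked. No gene is named, because no annotation of the coordinate system of these lists was used here.

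Most of the regions were weakly looped and narrow. The median was 14 PETs in MH63 seedling (25th to 75th percentile 8 to 25, highest 576) and 28.5 PETs in ZS97 seedling (20 to 41, highest 413). Together they held 1.93% of the PETs of the MH63 seedling list and 2.87% of those of the ZS97 seedling list. Only 116 regions had 20 or more PETs in both lists and 10 had 100 or more. PETs in the 2 varieties went together over the 378 regions, with a Pearson r of 0.74 on the log2 scale and a Spearman rho of 0.69, and with a rho of 0.84 over the 6021 regions also looped in both roots. These are descriptions of regions that share libraries and were selected on the same values.

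**Figure D1:**
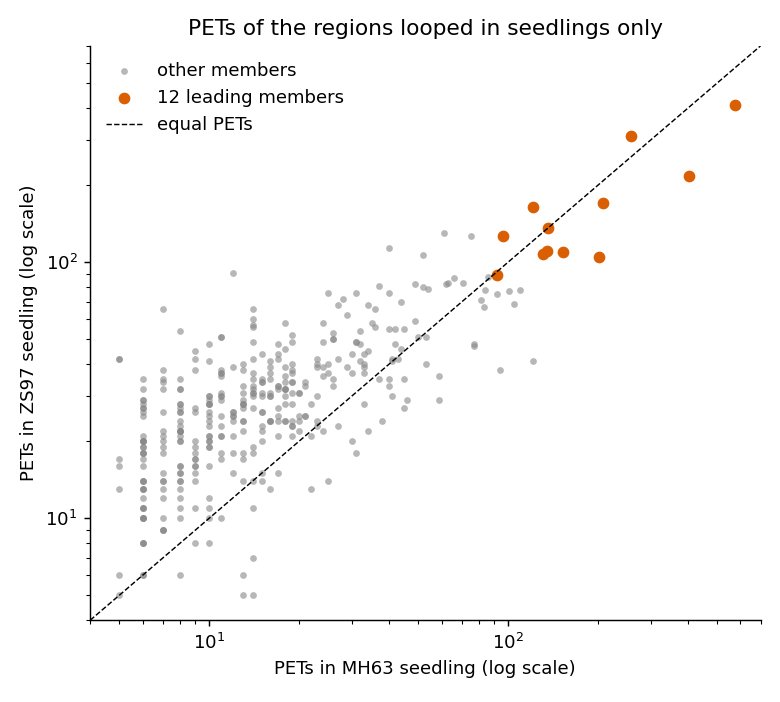
PETs of each of the 378 regions in MH63 seedling (x axis) and ZS97 seedling (y axis), both on log scales; each point is 1 region, orange points are the 12 with the highest lower value and the dashed line marks equal PETs. Most grey points lie above the line, while the leading regions lie on both sides of it.

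The share of seedling regions without a root loop fell with the strength of the seedling signal. Where the lower of the 2 seedling values was 5 to 9 PETs, 117 of 699 regions had no root loop, 16.7% (14.04 to 19.72). At 20 to 39 PETs it was 68 of 1603, 4.24% (3.31 to 5.35), and at 80 or more it was 13 of 1900, 0.684% (0.365 to 1.17). The share fell with the summed anchor width of a region as well. It was 19.1% (16.4 to 22.2) where the MH63 seedling anchors covered under 1 kb and 0.464% (0.212 to 0.878) where they covered 5 kb or more.

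**Figure D2:**
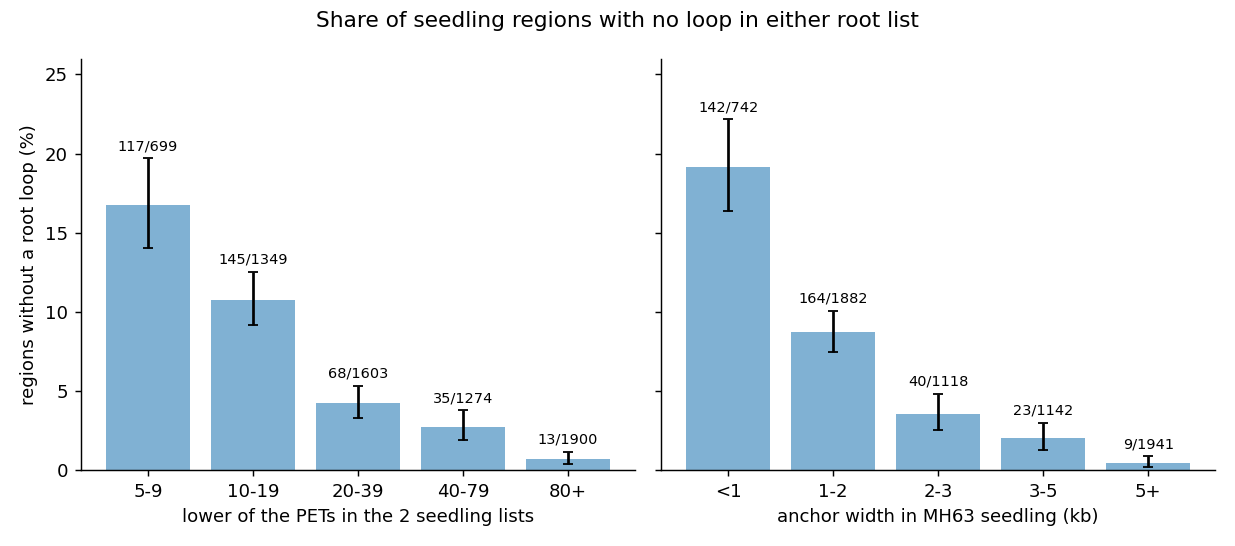
Share of the 6825 seedling regions without a loop in either root list (y axis, percent), by the lower of the seedling PETs (left) and by anchor width in MH63 seedling, summed within a region, in kb (right); error bars are exact 95% binomial intervals and the fractions give regions without a root loop over all regions of the class. The share falls from 16.7% to 0.684% with PETs and from 19.1% to 0.464% with width.

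The merged regions had a median width of 1243 bp (1163 to 1384), from 244 bp to 13.6 kb. Seedling regions looped in both root lists, 6021 in number, had a median width of 5010 bp (4829 to 5174). Part of this gap is built in, because merging adds root anchors only to the latter. The seedling anchors alone covered less too. Their widths, summed within a region, had a median of 1177 bp (1093 to 1259) in MH63 and 949 bp (862 to 1022) in ZS97 at seedling-only regions. At regions also looped in both roots the medians were 2997 bp (2889 to 3093) and 2495 bp (2403 to 2565). A merged region can hold several seedling anchors, and root anchors can join them, so part of this gap may be built in as well. The difference in summed anchor width remained among regions of like PETs, where the same limit holds. In the class of 20 to 39 PETs the summed MH63 anchors had a median of 1544 bp at seedling-only regions and 2116 bp at regions looped in both roots. In the class of 80 or more PETs the medians were 5166 and 9284 bp. Tags at the anchors, a measure of enrichment for the mark, were sparser as well. Scaled to 1 kb of anchor and 1 M total tags, their median was 4.63 in MH63 seedling (4.25 to 4.98) against 8.92 (8.77 to 9.12) at regions looped in both roots. In ZS97 seedling it was 6.68 (6.24 to 7.21) against 12.02 (11.8 to 12.2). The 426 seedling regions looped in 1 root list were closer to the seedling-only ones in these traits. Their summed anchors had a median of 1400.5 bp (1346 to 1482) in MH63 and 1184 bp (1086 to 1264) in ZS97. Their scaled tags had a median of 5.16 (4.85 to 5.57) and 7.42 (6.95 to 7.96). Narrow anchors and sparse tags are therefore not particular to regions missing from both root lists.

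Seedling-only regions were found on all 12 chromosomes, and 1 lay on an unplaced sequence. Chromosome 1 had 54, chromosome 2 had 50 and chromosome 5 had 40. Taken as a share of the seedling regions of a chromosome, they were most frequent on chromosome 5, at 7.42% (5.35 to 9.97), and on chromosome 2, at 6.95% (5.21 to 9.07). The lowest share was on chromosome 4, at 4.44% (2.87 to 6.54). These intervals overlap, and all 12 of them hold the overall 5.54%. With each chromosome cut into 5 equal segments, the share was 6.60% (5.41 to 7.96) in segment 1 and 6.16% (5.06 to 7.42) in segment 5. It was 3.86% (2.76 to 5.24) in segment 2, 4.48% (3.22 to 6.05) in segment 3 and 5.46% (4.43 to 6.65) in segment 4.

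The region with the most PETs lay on chromosome 12 at 23121091 to 23134730. It had 576 PETs in MH63 seedling (530 to 625) and 413 in ZS97 seedling (374 to 455), and at 13.6 kb it was also the widest. It had 46 partner regions in MH63 and 34 in ZS97, the most of any member when both lists are added. Contacts within the chromosome held 87.8% of its PETs in MH63 and 77.5% in ZS97. Both varieties ranked the same 3 partners first. The region at 23149641 to 23182975, 14.9 kb away, took 142 PETs in MH63 and 104 in ZS97, the region at 22998397 to 23053799 took 116 and 88, and the region at 23211522 to 23244525 took 58 and 42. These partners were well looped in root, with 1588 and 1256, 2117 and 1735, and 1457 and 1276 PETs in MH63 and ZS97 root. The member between them was missing from both root lists, and 3 loops of up to 200 kb passed over it in MH63 root and 5 in ZS97 root.

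On chromosome 2 the region at 21858955 to 21866379 had 259 PETs in MH63 seedling (228 to 293) and 312 in ZS97 seedling (278 to 349). It was joined to 32 and 45 partners. Its strongest partner in MH63 was at 21819103 to 21833262, with 49 PETs in MH63 and 37 in ZS97, and the next was at 21959747 to 21977059, with 46 and 25. Another partner, at 21850283 to 21852883, was seedling-only too, with 31 PETs in MH63 and 37 in ZS97, which tied for the highest there. The smaller regions at 21848689 to 21849777 and 21846095 to 21847119 completed a run of 4 seedling-only regions over 20.3 kb. They were joined to the large one by 13 and 10 PETs in MH63 and by 14 and 13 in ZS97. No region with a root loop lay between these 4.

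On chromosome 6 the region at 26113140 to 26120325 had 403 PETs in MH63 seedling (365 to 444) and 217 in ZS97 seedling (189 to 248). In MH63, 248 of these led to the next region, 26121305 to 26147389, only 0.979 kb away, while no loop between these regions was listed in ZS97. No loop shorter than 4.35 kb between anchor midpoints was listed in MH63 seedling and none shorter than 4.24 kb in ZS97 seedling. The centres of the member and this neighbour were 17.6 kb apart, which is above these limits. Why ZS97 lists no loop between them was not tested. Without that pair the PETs were 155 in MH63 and 217 in ZS97. Its other leading partners were alike in the varieties, with 28 and 38 PETs to 26157769 to 26161689 and 17 and 25 PETs to 26207761 to 26232756. A smaller seedling-only region at 26110323 to 26111898, with 153 and 110 PETs, was joined to the same neighbour by 83 PETs in MH63 and 45 in ZS97. This neighbour had 1436 PETs in MH63 seedling and 919 in ZS97 seedling but 85 in MH63 root and 56 in ZS97 root. The region at 26157769 to 26161689 had 288 and 427 PETs in seedling, against 8 in MH63 root and none listed in ZS97 root. Loops of up to 200 kb passed over the member in root as well, 19 in MH63 and 12 in ZS97.

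**Figure D3:**
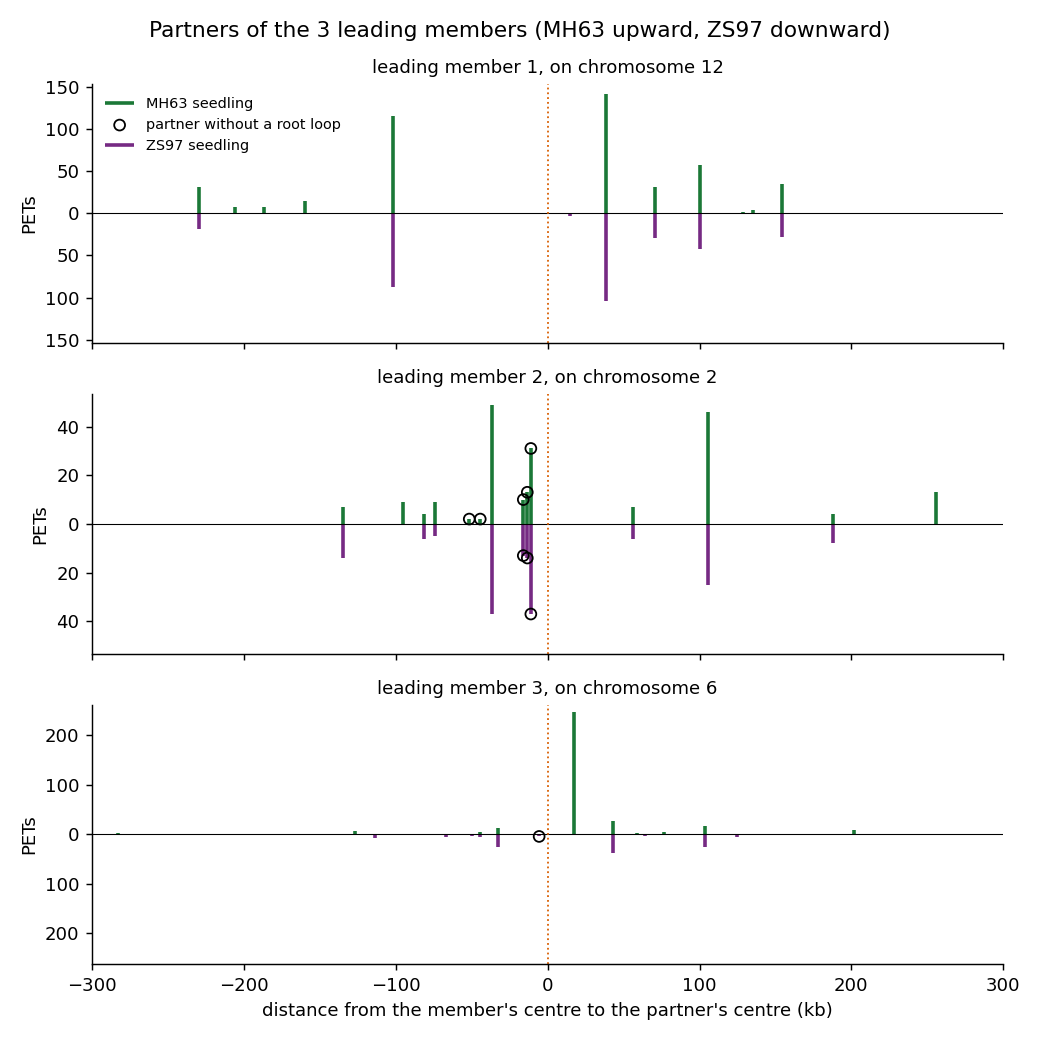
Partners of the 3 seedling-only regions with the highest lower seedling value, within 300 kb of the member: x axis, distance from the member's centre to the partner's centre in kb; y axis, PETs of the pair, upward for MH63 seedling and downward for ZS97 seedling; open circles mark partners that had no root loop themselves. The leading partners of the members on chromosomes 12 and 2 mirror each other between the varieties, and the 248 PETs on chromosome 6 stand on the MH63 side alone.

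The next regions in order each had a strong contact with a near neighbour. On chromosome 1, 6810803 to 6815460 had 208 PETs in MH63 seedling and 171 in ZS97 seedling, of which 83 and 57 led to 6768597 to 6781980, 28.8 kb away. On chromosome 9, 12496438 to 12505530 had 136 PETs in each, of which 48 and 42 led to 12469737 to 12483934. On chromosome 6, 22667310 to 22671329 had 121 and 164 PETs, and 75 and 70 of them led to 22675411 to 22687832. That partner had no loop in MH63 root and 9 PETs in ZS97 root, against 243 and 281 in the seedlings. On chromosome 7, 21412379 to 21420996 had 135 and 111 PETs, with 53 and 41 to 21432457 to 21452055. Here the partner had 107 and 186 PETs in MH63 and ZS97 root against 152 and 302 in seedling. In each of these 4 cases the varieties gave the same strongest partner.

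The remaining 4 of the 12 leading regions were on chromosomes 3, 9 and 5. The region at 3465923 to 3469732 on chromosome 3 had 131 PETs in MH63 seedling and 108 in ZS97 seedling, with 42 and 36 to a region 1.42 kb away. On chromosome 9, 7226986 to 7232753 had 201 and 105 PETs, and contacts within the chromosome held 68.7% of them in MH63 but 38.1% in ZS97. On chromosome 5, 26488322 to 26492224 had 96 and 127 PETs, and 431027 to 436253 had 92 and 89. Together the 12 leading regions held 25.6% of the PETs of all seedling-only regions in MH63 and 14.8% in ZS97. All 12 lay under a loop of up to 200 kb in MH63 root, and 11 did in ZS97 root. Among all seedling-only regions the shares were 74.1% and 74.3%. How often other regions lie under such loops was not measured.

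Seedling-only regions lay near each other in 107 of 378 cases (28.3%, 23.8 to 33.1), counting those with another within 50 kb. They formed 49 groups, of which 42 were pairs, 5 had 3 regions and 2 had 4. Besides the run on chromosome 2, the other group of 4 was on chromosome 11 at 20573115 to 20636130. Its regions had 9 to 105 PETs in MH63 seedling and 30 to 78 in ZS97 seedling, and 4 regions with root loops stood among them, with 299 PETs in MH63 root and 184 in ZS97 root. Chromosome 6 had 3 groups of 3, at 26062740 to 26120325 (608 PETs in MH63 seedling and 407 in ZS97 seedling in all), 28242597 to 28274426 (53 and 82) and 4252830 to 4284708 (19 and 61). Chromosome 5 had the other 2, at 27983010 to 28029964 (54 and 108) and 583022 to 593725 (31 and 141). No region with a root loop stood among the members of the last one named on each chromosome. At a minimum of 20 PETs in both seedling lists the share was 14.7%. The 426 seedling regions looped in 1 of the root lists, a set of like size, had another of their kind within 50 kb in 21.8% of cases (18.0 to 26.1). Regions looped in roots only, 1250 of the 8236 with 5 or more PETs in both root lists (15.2%), had another of their kind within 50 kb in 46.6% (43.8 to 49.5), but they were also more numerous.

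Seedling-only regions were joined mostly to regions that were looped in root. Of their distinct partner regions, 96.4% had a root loop, in MH63 seedling (1563 of 1622, 95.3 to 97.2) and in ZS97 seedling (2524 of 2619, 95.6 to 97.1). For the partners of regions looped in both roots, which were more numerous, it was 88.2% (87.5 to 88.8) and 91.4% (90.7 to 92.0). Counted over loop ends, the shares were closer, at 97.6% against 96.9% in MH63 and 97.5% against 95.7% in ZS97. The distinct partners were wide, with a median of 10024 bp in MH63 and 7611 bp in ZS97. Those of regions looped in both roots had 3159 and 3638 bp. The latter were drawn from far more regions and numbered 9714 in MH63 and 7980 in ZS97, so the widths are not of sets of like size. The 426 seedling regions looped in 1 root list were close to the seedling-only ones in both respects. Their partners had a median width of 9174 bp in MH63 and 7052 bp in ZS97, and 97.0% and 96.0% of them had a root loop. Contacts among seedling-only regions themselves were rare. They made up 1.30% of loop ends in MH63 (0.910 to 1.79) and 1.94% in ZS97 (1.57 to 2.37). At regions looped in both roots, the share of loop ends that led to a seedling-only region was 1.73% in MH63 (1.67 to 1.80) and 2.80% in ZS97 (2.72 to 2.89).

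Of the contacts among seedling-only regions, 18 pairs were listed in MH63 and 45 in ZS97, and 8 in both. All 8 joined regions of the same chromosome, 5.20 to 13.7 kb apart. The strongest 3 were those on chromosome 2 described above. The others of the leading 6 were on chromosome 11, where 20573115 to 20577968 was joined to 20591647 to 20594877 by 17 PETs in MH63 and 6 in ZS97 and 20582511 to 20583820 to the same region by 3 and 5, and on chromosome 6, where 11691932 to 11693703 was joined to 11698902 to 11702429 by 8 and 2.

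The regions that joined the most seedling-only regions were wide domains. The domain at 4954220 to 5091484 on chromosome 1, 137 kb wide, was joined to 11 of them in MH63 and 14 in ZS97, and only 4 in each variety lay on chromosome 1. The domain at 16984222 to 17180348 on chromosome 2, 196 kb wide, was joined to 9 and 16, of which 5 in each variety lay on chromosome 2. Both were well looped in root, with 1277 and 3191 PETs for the former and 3189 and 3688 for the latter in MH63 and ZS97 root. The number of other regions joined to these domains is not given here, so the counts show no preference for seedling-only regions.

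Contacts within the chromosome held 62.8% of the PETs of seedling-only regions in MH63 (61.8 to 63.8) and 36.7% in ZS97 (35.9 to 37.5). At regions looped in both roots the shares were 72.6% (72.5 to 72.7) and 55.1% (55.0 to 55.3). This difference went with the number of PETs. In the class of 20 to 39 PETs the share in MH63 was 58.4% at seedling-only regions and 50.7% at regions looped in both roots, and in ZS97 it was 33.2% and 32.3%. The loops were also weaker: 68.3% of loop ends in MH63 (66.5 to 70.0) and 69.2% in ZS97 (67.9 to 70.6) rested on 2 PETs, against 53.1% and 50.8%. In the 426 regions looped in 1 root list these shares were 67.4% (65.8 to 68.9) and 66.2% (64.9 to 67.4). In MH63, 36 seedling-only regions had no partner on their own chromosome (9.52%, 6.76 to 12.9), and in ZS97 there were 39 (10.3%, 7.44 to 13.8). Among regions looped in both roots the shares were lower, at 3.62% and 4.72%. Of the 426 regions looped in 1 root list, 12.4% (9.46 to 15.96) had no such partner in MH63 and 11.97% (9.05 to 15.4) in ZS97. Lacking such a partner is therefore not particular to regions missing from both root lists.

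The median span of loops within a chromosome was 101 kb in MH63 (89.8 to 115) and 151 kb in ZS97 (117 to 195) at seedling-only regions, against 212 kb (208 to 216) and 163 kb (159 to 167) at regions looped in both roots. Short loops were more frequent than at regions looped in both roots, in both varieties. Loops with both anchors in 1 merged region were left out, and 0 of these lay in a seedling-only region. Regions looped in both roots were wider, so part of this difference may be built in, and spans were not matched on PETs. Under 20 kb lay 16.6% of loop ends in MH63 (14.5 to 18.8) and 16.1% in ZS97 (13.96 to 18.36), where regions looped in both roots had 7.87% (7.66 to 8.08) and 9.70% (9.43 to 9.99). Loops of 100 kb to 1 Mb were less frequent in both, at 29.4% against 39.7% in MH63 and 20.2% against 30.1% in ZS97. Over 1 Mb the varieties went apart. The share was below that of regions looped in both roots in MH63, at 21.0% (18.7 to 23.4) against 26.1%, and above it in ZS97, at 35.5% (32.7 to 38.4) against 29.6%. The 426 regions looped in 1 root list resembled the seedling-only ones here too. Their median span was 119 kb (99.8 to 133) in MH63 and 152 kb (120 to 188) in ZS97, and 14.4% (12.6 to 16.4) and 15.5% (13.6 to 17.6) of their loop ends lay under 20 kb. Over 1 Mb lay 23.2% (21.0 to 25.6) and 32.3% (29.8 to 34.9). These traits are therefore not particular to regions missing from both root lists. The strongest partner of a seedling-only region lay on its own chromosome in 82.5% of cases in MH63 and 57.7% in ZS97, and then at a median distance of 35.8 kb in MH63 and 36.3 kb in ZS97. At regions looped in both roots the shares were 87.2% and 70.6%, at like medians of 37.8 and 35.5 kb. In the 426 regions looped in 1 root list they were 76.8% and 59.9%, at 44.8 and 38.6 kb.

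**Figure D4:**
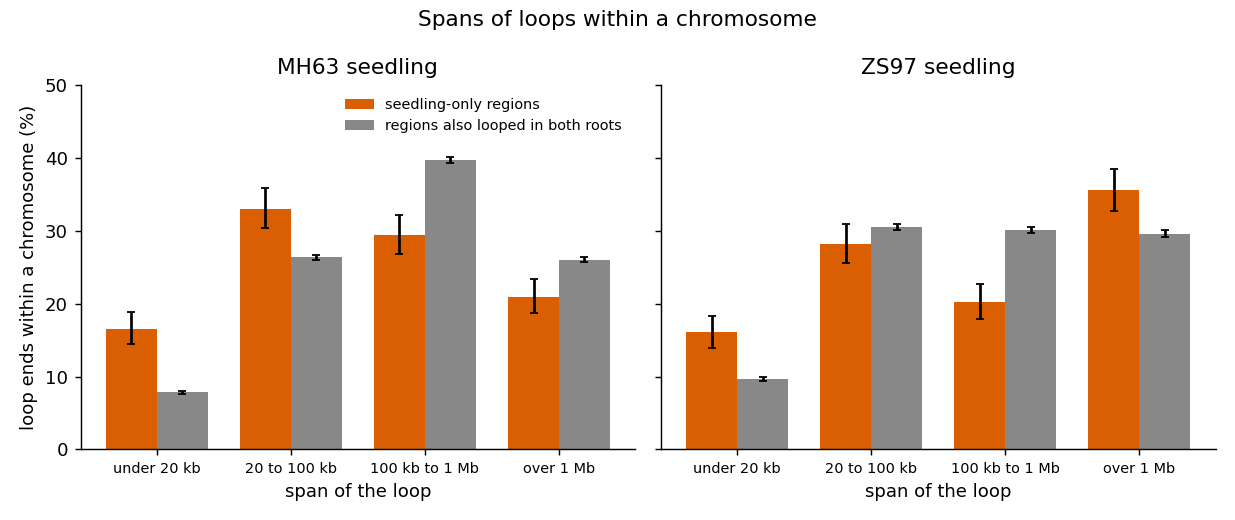
Share of loop ends within a chromosome (y axis, percent) by the span of the loop, in MH63 seedling (left) and ZS97 seedling (right), for the 378 seedling-only regions (orange) and the 6021 regions also looped in both roots (grey); error bars are exact 95% binomial intervals. Loops under 20 kb are the more frequent at seedling-only regions in both varieties, and those of 100 kb to 1 Mb the less frequent. Loops with both anchors in 1 merged region are left out.

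Contacts within a chromosome recurred between the varieties and contacts between chromosomes hardly did. Of the pairs of a seedling-only region and a partner on its chromosome, 354 were listed in both seedling lists, 31.9% of the 1110 in MH63 (29.2 to 34.7) and 33.1% of the 1070 in ZS97 (30.27 to 35.99). At regions looped in both roots the shares were 31.01% and 43.86%. Between chromosomes 11 pairs were common to both lists, 0.680% of the 1617 in MH63 (0.340 to 1.21) and 0.303% of the 3626 in ZS97 (0.152 to 0.542), against 0.773% and 0.576% at regions looped in both roots. The common pairs within chromosomes had a median of 5 PETs in each variety and a median span of 33.3 kb (28.5 to 37.2), while pairs listed in 1 variety alone had a median of 2 PETs. At least 1 common partner was found for 220 of the 378 regions (58.2%, 53.0 to 63.2), against 77.2% of regions looped in both roots. In the 426 seedling regions looped in 1 root list the share was 53.1% (48.2 to 57.9). Seedling-only regions also had fewer partners to share, with a median of 5 in MH63 and 12 in ZS97. At regions looped in both roots the medians were 14 and 18. Among the 11 common pairs between chromosomes, 1 had more than 5 PETs in a list. It was chosen here after its values were seen and joined the narrowest region, 11554868 to 11555111 on chromosome 3, to 34027304 to 34027876 on chromosome 1, with 12 PETs in MH63 and 5 in ZS97. All 12 PETs of that region in MH63 seedling belonged to this pair.

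What lay around the seedling-only regions was then measured, since the rule did not use it. The nearest region with a root loop was at a median distance of 5.55 kb (4.42 to 6.92), and 90.9 kb away at the most. For regions looped in both roots the nearest other such region was 4.30 kb away (4.11 to 4.51). Loops of up to 200 kb with anchors on both sides passed over 74.1% of the seedling-only regions in MH63 root (69.3 to 78.4) and 74.3% in ZS97 root (69.6 to 78.7), and over 76.2% in MH63 seedling (71.6 to 80.4) and 69.3% in ZS97 seedling (64.4 to 73.9). This was not measured at other regions, so these shares have no background to set them against. Of the 354 common pairs within chromosomes, 91.0% had a partner with loops in both root lists. In root the partner was joined to another region within 10 kb of the member in 38.98% of these pairs in MH63 (33.87 to 44.28), in 42.1% in ZS97 (36.9 to 47.4) and in 31.6% in both. Only 234 of the 354 pairs had a region with a root loop within 10 kb of the member, and of these the shares were 58.97% in MH63 (52.4 to 65.3) and 63.7% in ZS97 (57.2 to 69.8). The share at other regions was not measured.

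The neighbours of seedling-only regions were more often lower in root than regions at large, in both varieties and under both scalings; their median level was lower in root than in seedling except in ZS97 when scaled on total tags. PETs were compared between root and seedling of a variety after scaling on the total PETs of each list, in regions other than the seedling-only ones with at least 20 PETs in both lists together, and loops to seedling-only regions were left out. A region was called lower or higher when the ratio was at least 2-fold and its 95% interval excluded 1; a value under 3 PETs entered the ratio as a floor of 3. In MH63, 111 of 272 regions within 10 kb of a seedling-only region were lower in root, 40.8% (34.9 to 46.9), against 15.2% of all 9340 regions compared. In ZS97 it was 131 of 286, 45.8% (39.9 to 51.8), against 23.8% of 8720. Higher in root were 17.6% of these neighbours in MH63 (13.3 to 22.7), against 40.8% of all regions, and 11.2% in ZS97 (7.78 to 15.4), against 28.1%. The median ratio of root to seedling PETs was 0.631 at the neighbours in MH63 and 1.51 over all regions, and 0.528 and 0.962 in ZS97. Neighbouring regions share loops with each other, so they are not independent.

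The share called lower in root, scaled on total PETs, fell with distance from a seedling-only region. Within 5 kb it was 48.0% in MH63 (40.3 to 55.7) and 48.1% in ZS97 (40.6 to 55.6). At 5 to 10 kb it was 28.3% (19.7 to 38.2) and 41.9% (32.3 to 51.9), and at 10 to 20 kb 26.1% (20.2 to 32.7) and 33.2% (26.7 to 40.1). At 20 to 50 kb it was 23.2% (19.7 to 27.1) and 32.0% (28.0 to 36.3), at 100 to 200 kb 17.6% (15.6 to 19.8) and 25.0% (22.6 to 27.6), and beyond 1000 kb 8.02% (6.80 to 9.39) and 16.97% (15.10 to 18.97). Higher in root at 5 to 10 kb were 25.3% in MH63 (17.1 to 35.0) and 17.1% in ZS97 (10.5 to 25.7). In MH63 the shares lower and higher were thus close at 5 to 10 kb, and at 10 to 20 kb 24.1% were higher. Farther away more regions in MH63 were higher in root than lower. At 100 to 200 kb 37.6% were higher, and at 200 to 1000 kb 42.3% were higher and 13.5% lower. Scaled on total tags, 53.7% of the neighbours within 10 kb were lower in root in MH63 (47.6 to 59.7), against 23.4% of all regions, and 12.1% were higher, against 33.6%. In ZS97, where this scaling lifts all root values, 12.2% were lower (8.67 to 16.6), against 3.82%, and 55.9% were higher, against 76.7%. The median ratio there was 2.24 at the neighbours and 4.08 over all regions. Whether depth has a part in these differences was not tested. Scaled on total PETs, the partners on the chromosome common to both seedling lists were lower in root in 42.7% of cases in MH63 (36.9 to 48.6) and in 23.2% in ZS97 (18.4 to 28.5). They had been chosen for loops in seedling, and in ZS97 the share lower was no higher than the 23.8% of all regions, against 15.2% in MH63. Higher in root were 5.90% of them in MH63 and 4.15% in ZS97, against 40.8% and 28.1% of all regions. Their median ratios of root to seedling PETs were 0.572 and 0.710, against 1.51 and 0.962. Scaled on total tags, 80.6% of them were higher in root in ZS97, against 76.7% of all regions.

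**Figure D5:**
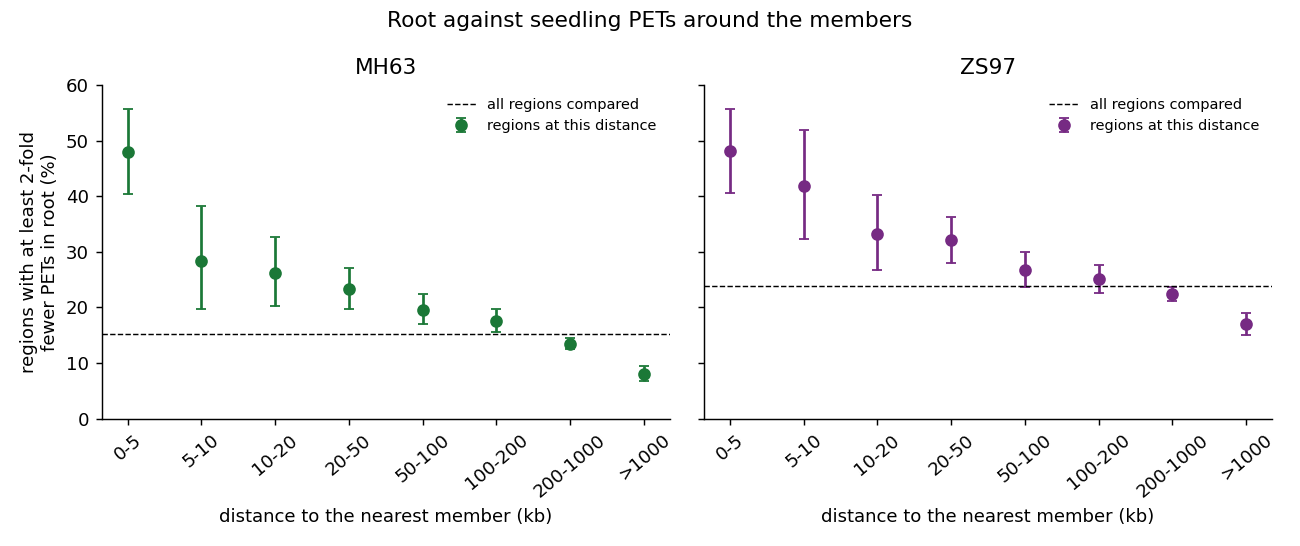
Share of regions other than the seedling-only ones with at least 2-fold fewer PETs in root than in seedling (y axis, percent), by their distance from the nearest seedling-only region in kb, in MH63 (left) and ZS97 (right); points are shares, error bars exact 95% binomial intervals and the dashed lines mark all regions compared (15.2% and 23.8%). The share falls from 48.0% within 5 kb to 8.02% beyond 1000 kb in MH63 and from 48.1% to 16.97% in ZS97.

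The varieties were compared at the seedling-only regions themselves, and the direction depended on the scaling. The lists of both varieties share 1 coordinate system of unnamed build, so differences in sequence and in contacts cannot be told apart. Scaled on total PETs, 329 of the 378 had more PETs in ZS97 seedling than in MH63 seedling (87.0%, 83.2 to 90.3), against 70.1% of all seedling regions. Scaled on total tags it was 116 of 378 (30.7%, 26.1 to 35.6), against 17.5%. By the 2-fold rule 154 were higher in ZS97, 40.7%, against 24.1% of all 6825 seedling regions, and 2 were lower, 0.529%, against 4.19%. The summed PETs gave a ratio of 1.49 (1.45 to 1.53), against 1.02 over all seedling regions. Scaled on total tags the ratio turned to 0.612 (0.596 to 0.628), against 0.418 over all seedling regions, with 12 regions higher (3.17%, against 2.46%) and 64 lower (16.9%, against 42.6%). Weakly looped regions had the higher ratios, which is in part built in, since the lower value was mostly that of MH63. In the class of 10 to 19 PETs the median ratio, scaled on total PETs, was 2.11 at seedling-only regions and 2.04 at regions looped in both roots. At 20 to 39 PETs the medians were 1.41 and 1.40, and at 40 to 79 PETs they were 1.20 at each. In the remaining classes seedling-only regions had the lower median, with 2.63 against 3.33 at 5 to 9 PETs and 0.868 against 1.00 at 80 or more. Of the 12 leading regions, 5 had more PETs in ZS97 when scaled on total PETs and 0 when scaled on total tags.

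Ratios of single regions were ranked on values scaled on total PETs. The highest was at 591419 to 593725 on chromosome 5, with 7 PETs in MH63 seedling and 66 in ZS97 seedling, a 9.92-fold difference (4.56 to 25.6) that was 4.07-fold (1.87 to 10.5) on total tags. Its 26 partners in ZS97 included 24 on other chromosomes. Next came 4166672 to 4168530 on chromosome 7, with 5 PETs in MH63, 42 in ZS97 and 15 of its 18 ZS97 partners on other chromosomes. A region on chromosome 10, 13970892 to 13971566, had the same PETs and 18 of 20 such partners. In the other direction stood 5970122 to 5973790 on chromosome 9, with 121 PETs in MH63 and 41 in ZS97, a ratio of 0.357 (0.244 to 0.512), or 0.146 (0.100 to 0.210) on total tags. The regions on chromosome 5 at 5235401 to 5237120, with 14 and 5 PETs, and at 1090033 to 1091096, with 13 and 5, had intervals that include equality on total PETs, reaching 1.10 and 1.21, but not on total tags, where they reached 0.453 and 0.497.

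At the edge of the rule, 7 seedling-only regions had exactly 5 PETs in MH63 seedling and 3 had exactly 5 in ZS97 seedling. Just outside it, 119 regions without a root loop had 2 to 4 PETs in MH63 seedling and 5 or more in ZS97 seedling, and 2 had 2 to 4 in ZS97 seedling and 5 or more in MH63 seedling. A further 107 seedling regions had 2 to 4 PETs in both root lists together. The strongest of these was at 26016313 to 26021630 on chromosome 7, with 59 PETs in MH63 seedling, 56 in ZS97 seedling, none listed in MH63 root and 2 in ZS97 root. A region on chromosome 1, 25228738 to 25230630, had 45 PETs in MH63 seedling and 60 in ZS97 seedling. One on chromosome 3, 2032488 to 2034435, had 45 and 42. On chromosome 12 lay 24435575 to 24438116 with 39 and 66 PETs, and 4076398 to 4078687 with 36 and 57. Each of these 5 was listed in only 1 of the root lists. Over the single varieties, 12.1% of the regions with 5 or more PETs in MH63 seedling had no loop in MH63 root, and 11.3% of those in ZS97 seedling had none in ZS97 root. Of the 6825 regions with 5 or more PETs in both seedling lists, 237 were missing from the MH63 root list alone and 189 from the ZS97 root list alone.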

How the data were processed

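H3K27me3 ChIA-PET was analysed in the 8 MH63 and ZS97 samples, 1 pooled list of loops per group. Per the labels' protocols, formaldehyde and EGS were used for cross-linking, DNA ends were joined by a biotinylated bridge linker, and libraries were read as paired ends. Deposited values for the PETs of a loop and the tags at its anchors are raw counts. The authors also deposited a p-value and an FDR per loop, and the −log10 of both; every deposited FDR was below 0.05 and every loop had at least 2 PETs. The sources used here do not name the loop caller, the aligner or the genome build. Starts were read as 0-based, as in BED files, and positions are printed 1-based.

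Anchors overlapping by at least 1 bp were merged into regions, and a loop counted once in each region that held an anchor midpoint. Total tags per list were solved from deposited p-values, as a Poisson tail, over the loops that had 2 PETs and more than 200 tags on either side; the 5th to 95th percentiles lay within 0.173% of the median in all 4 lists. Intervals are exact Clopper-Pearson for shares and ratios of PETs, exact Poisson for PETs of a region and binomial order statistics for medians. Python 3.11.15, pandas 2.3.3 and scipy 1.17.1 were used, and region merging, selection and the solved totals were tested on simulated data. The members, lists and comparisons were chosen with earlier results of these data known. Named regions are the 12 with the highest lower seedling value, the 3 widest, the 5 with most partners, the groups with most members (ties gave 7), the 6 strongest pairs among them, the extremes of the ZS97 to MH63 ratio and 5 regions just outside the rule. The 2 lists of the Dongjin background use other coordinates and were not used here. Alternatives to the lowest PETs, the loops used, the merging of anchors, the rule on root, the distance that counts as near and the scaling were tried.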

Additional observations from a re-analysis of the deposited data

How the results depend on the processing

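Each group was 1 pooled list, so no replicate could be left out. No paired analysis was possible because the lists carry no columns for single replicates. Of 68 values under alternatives, 21 stayed within their main interval (counts within 1.5 times), 46 moved outside it and 1 turned direction; that was the ZS97 to MH63 ratio of summed PETs, 1.49 as reported and 0.612 scaled on total tags. Without scaling it was 1.42. The causes of the moves were not tested.

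The 378 regions became 116 with a minimum of 20 PETs, 232 with loops within a chromosome only, 123 without any root anchor within 10 kb and 615 when only MH63 root was asked. The median width of 1243 bp became 1448 (minimum of 10 PETs), 2055 (20 PETs), 1646 (loops of 3 or more PETs), 1572 (within a chromosome) and 1390 bp (FDR below 0.01). Over both seedling lists, 47.5% of the PETs were in loops within a chromosome; this became 50.5% (10 PETs), 57.1% (20 PETs), 65.9% (3 or more PETs), 69.9% (FDR below 0.01), 46.2% (anchors up to 1 kb apart merged) and 38.7% (no root anchor within 10 kb). The median span of 116 kb became 104 kb with 10 PETs (104.2) and within a chromosome (103.7), 66.8 kb (3 or more PETs), 58.5 kb (FDR below 0.01) and 159 kb (no root anchor within 10 kb). The 28.3% with another within 50 kb became 22.2% (10 PETs), 14.7% (20 PETs), 20.1% (3 or more PETs), 20.4% (merged to 1 kb), 22.8% (no root anchor within 10 kb), 20.4% at a distance of 20 kb and 35.7% at 100 kb. The 1.70% of loop ends with a seedling-only partner became 3.03% (within a chromosome), 2.83% (FDR below 0.01), 1.42% (merged to 1 kb) and 0.506% (no root anchor within 10 kb). The 95.8% of partners with a root loop became 96.5% (3 or more PETs), 93.8% (within a chromosome), 94.5% (FDR below 0.01), 96.6% (merged to 1 kb) and 96.9% (no root anchor within 10 kb). Of the MH63 pairs of a seedling-only region and a partner, 13.4% were also listed in ZS97. This became 28.9% (3 or more PETs), 36.2% (within a chromosome), 18.6% (FDR below 0.01) and 9.90% (no root anchor within 10 kb). The ZS97 to MH63 ratio became 1.37 (10 PETs), 1.12 (20 PETs), 1.26 (3 or more PETs), 1.21 (FDR below 0.01) and 1.58 (no root anchor within 10 kb).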
